A study of Mus musculus with 10 samples.

Results

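Transcripts of 9 goblet cell genes were examined in sorted cells of the mouse small intestine. The set holds Muc2, Tff3, Fcgbp, Clca1, Zg16, Agr2, Spink4 and Retnlb, which encode products of the secretory pathway of goblet cells, and Spdef, which encodes their transcription factor. Members were taken by gene symbol, and all 9 were found among the 54532 genes listed and passed the filter on low values (a cpm, the count scaled to library size, above 0.5 in at least 3 libraries). The question addressed was which of these transcripts were shared between endocrine-rich cells and other epithelial cells.

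The RNA was that of 5 litter-matched Gucy2c-GFP mice, 10 weeks old and on the outbred CD1/ICR background. GUCY2C is the intestinal receptor guanylate cyclase C, and the mice carry a transgene in which its promoter drives green fluorescent protein. From each mouse, 20000 epithelial cells of high fluorescence (GUCY2Chi) and 20000 of medium fluorescence (GUCY2Cmed, abbreviated Lo in some labels) gave 1 library each, so that both groups carry the reporter and differ only in the gate. There was no library of nonfluorescent cells or of a mouse without the reporter, and a gate on fluorescence can hold several cell types. The library numbers 2, 7, 12, 14 and 15 occur in both groups and were read as mouse numbers.

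Goblet cells are secretory cells of the intestinal epithelium that release mucus, a gel built on the O-glycosylated mucin MUC2, together with small proteins that stabilize or modify it. They arise from the same Atoh1-dependent secretory progenitors as Paneth cells and enteroendocrine cells, the hormone-producing cells of the gut. Folding of mucins and other cysteine-rich cargo in the endoplasmic reticulum requires AGR2, a protein disulfide isomerase, and SPDEF promotes the maturation of goblet and Paneth cells.

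The letters just upstream of the start site are shown for the 4 members with a RefSeq promoter window (build GRCm38.p6). The other members, Spink4 among them, had no such window. A link between these letters and the levels given below was not tested. Each run holds the 250 bases before the RefSeq start site, 5′ to 3′ on the strand of the gene. For Agr2 and Spdef the run reaches into the gene positions given further below, which come with the counts and start slightly farther upstream. Capitals mark matches, on either strand, to the TATA box letters TATAA, to the E-box CAGCTG, to the GATA-type letters AGATAA, to the CDX2-type letters TTTATG, to the forkhead-type letters TGTTTAC or to the SPDEF-type Ets letters CCGGAT.
Muc2, chr7:141690090-141690339, plus strand: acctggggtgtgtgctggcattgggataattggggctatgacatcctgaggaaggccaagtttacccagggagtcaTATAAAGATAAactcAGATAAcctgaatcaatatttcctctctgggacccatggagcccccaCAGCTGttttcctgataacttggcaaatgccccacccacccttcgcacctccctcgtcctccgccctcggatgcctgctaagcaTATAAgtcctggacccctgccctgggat
Fcgbp, chr7:28070986-28071235, plus strand: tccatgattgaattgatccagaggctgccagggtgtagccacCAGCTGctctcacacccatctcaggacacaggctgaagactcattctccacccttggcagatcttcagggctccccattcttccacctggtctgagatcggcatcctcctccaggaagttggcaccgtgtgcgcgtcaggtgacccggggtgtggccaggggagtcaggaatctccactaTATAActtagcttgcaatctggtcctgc
Agr2, chr12:35992675-35992924, plus strand: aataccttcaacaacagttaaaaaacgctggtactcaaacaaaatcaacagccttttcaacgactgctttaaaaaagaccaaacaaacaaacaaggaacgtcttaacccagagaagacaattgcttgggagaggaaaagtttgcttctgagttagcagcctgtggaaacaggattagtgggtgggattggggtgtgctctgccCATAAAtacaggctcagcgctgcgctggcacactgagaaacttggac
Spdef, chr17:27728952-27729201, minus strand: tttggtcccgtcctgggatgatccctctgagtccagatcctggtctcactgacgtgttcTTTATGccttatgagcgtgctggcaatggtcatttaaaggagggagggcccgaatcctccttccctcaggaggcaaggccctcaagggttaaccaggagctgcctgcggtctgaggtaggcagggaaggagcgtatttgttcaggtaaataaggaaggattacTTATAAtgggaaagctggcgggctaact

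TATAA began at position -28 in both Muc2 and Fcgbp and at -27 in Spdef, counted back from the start site, and was not found in Agr2. It occurred in 22.8% of all 32851 windows of this length. The E-box was found in Muc2 (from -112) and Fcgbp (from -208), against 13.0% of all windows. The GATA-type letters occurred at 2 places in Muc2 only (9.99% of all windows), and the CDX2-type letters once each in Agr2 and Spdef (10.8%). The forkhead-type (3.17%) and Ets-type letters (4.94%) were in none of the 4. In Muc2 a TATAA run abuts an AGATAA run, and in Spdef TATAA overlaps its own reverse complement.

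Before the levels are compared, the makeup of the libraries is given. The gene counts of a library summed to between 10903958 and 15307932 reads. The sort was reflected in Gucy2c itself, which stood at 549 to 1757 cpm in GUCY2Chi cells and at 323 to 483 cpm in GUCY2Cmed cells (log2 fold change 1.71 ± 0.32, SE, adjusted p = 0.00187, but 0.0115 with the mouse as replicate block in edgeR). All 12 enteroendocrine markers were higher in GUCY2Chi cells, with a summed level of 29140 to 108900 cpm against 93.5 to 261 cpm. Enterocyte markers summed to 3001 to 4020 cpm in the GUCY2Chi libraries of mice 2, 7 and 14, to 30020 and 30430 cpm in those of mice 12 and 15, and to 53850 to 71830 cpm in GUCY2Cmed cells. Paneth cell markers reached 46000 cpm in the GUCY2Chi library of mouse 2 and 29270 cpm in that of mouse 14, and were between 6639 and 15530 cpm in the other 8 libraries. Transcripts of forebrain neurons summed to 209.9 to 1507 cpm in GUCY2Chi cells and to 15.3 to 808 cpm in GUCY2Cmed cells. That sum includes Snap25, which enteroendocrine cells also express and which did not overlap between the groups (lowest GUCY2Chi library at 181.6 cpm, highest GUCY2Cmed library at 115 cpm). Nrgn, another gene of the list, ranged from 8.91 to 933 cpm over the 10 libraries, and its groups overlapped. The part of these differences in the results below was not tested except where libraries were left out.

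**Figure D1:**
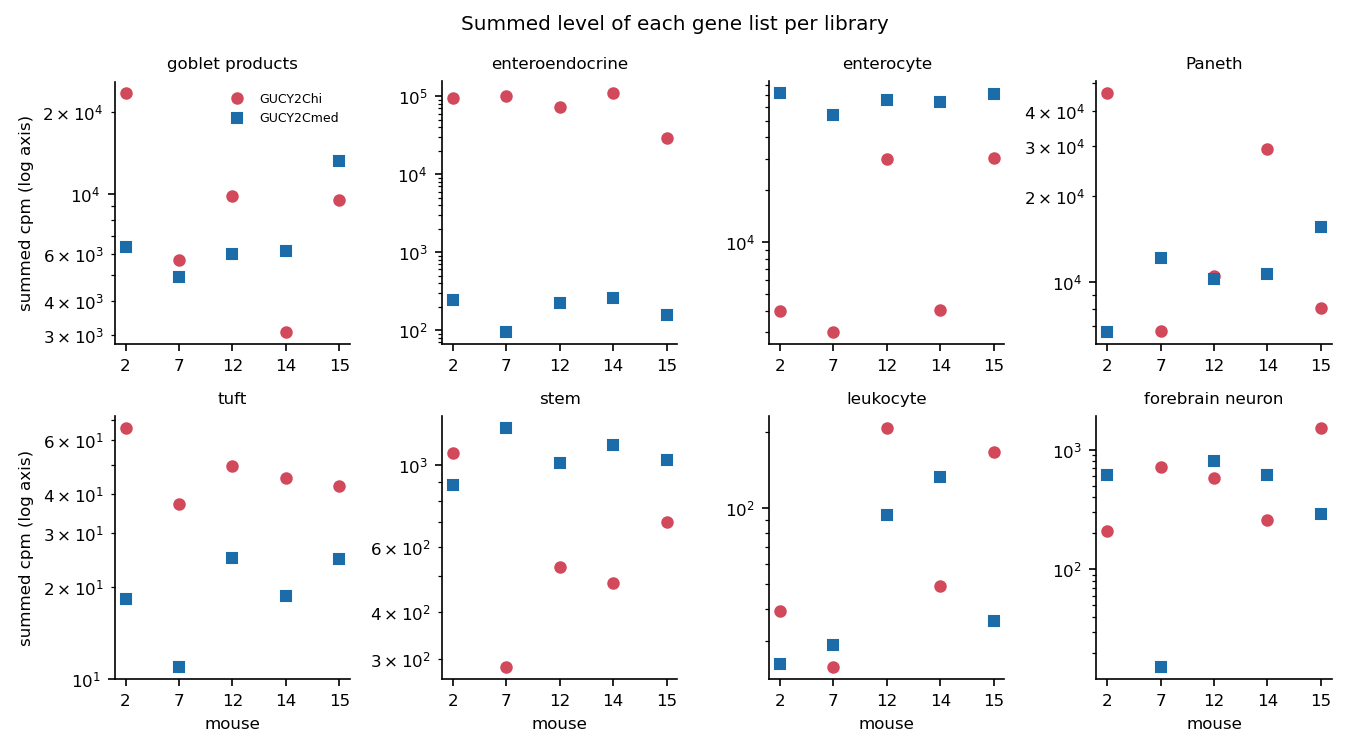
Summed level (cpm, log axis) of the 9 goblet cell products and of 7 cell type marker lists in each library, by mouse, with GUCY2Chi as red circles and GUCY2Cmed as blue squares. The enteroendocrine sums lie apart (29140 cpm or more against 261 cpm or less), whereas the goblet sums of the groups overlap (3073 to 23490 against 4922 to 13270 cpm).

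Summed over the set, goblet cell products were abundant in both groups. Together they took 0.305% to 2.58% of the counts in GUCY2Chi libraries and 0.463% to 1.09% in GUCY2Cmed libraries. Zg16 alone took 0.0646% to 1.25% and 0.198% to 0.593%. Spdef reached at most 28.0 cpm, and Retnlb had no count in either library of mouse 7. None of the 9 passed the threshold (edgeR quasi-likelihood test, Benjamini-Hochberg adjusted p under 0.01), in a comparison that called 22.7% of the 15703 genes tested, 13.9% as higher and 8.79% as lower in GUCY2Chi cells. Limma-voom also called none (25.0% of all genes), DESeq2 called Agr2 (33.1%), library size in place of TMM factors also called Agr2 (22.1%), and 4 of the 9 had an unadjusted p under 0.05 (47.5% of all genes). The levels of the groups overlapped for every member, whereas 29.9% of all genes did not overlap. The median log2 fold change was 0.48 over the members and 0.09 over all genes tested, with 6 members above 0 and 3 below. In bulk libraries such as these, fewer cells of a type and less RNA per cell cannot be told apart, nor can the cell within a gate that held a transcript.

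**Figure D2:**
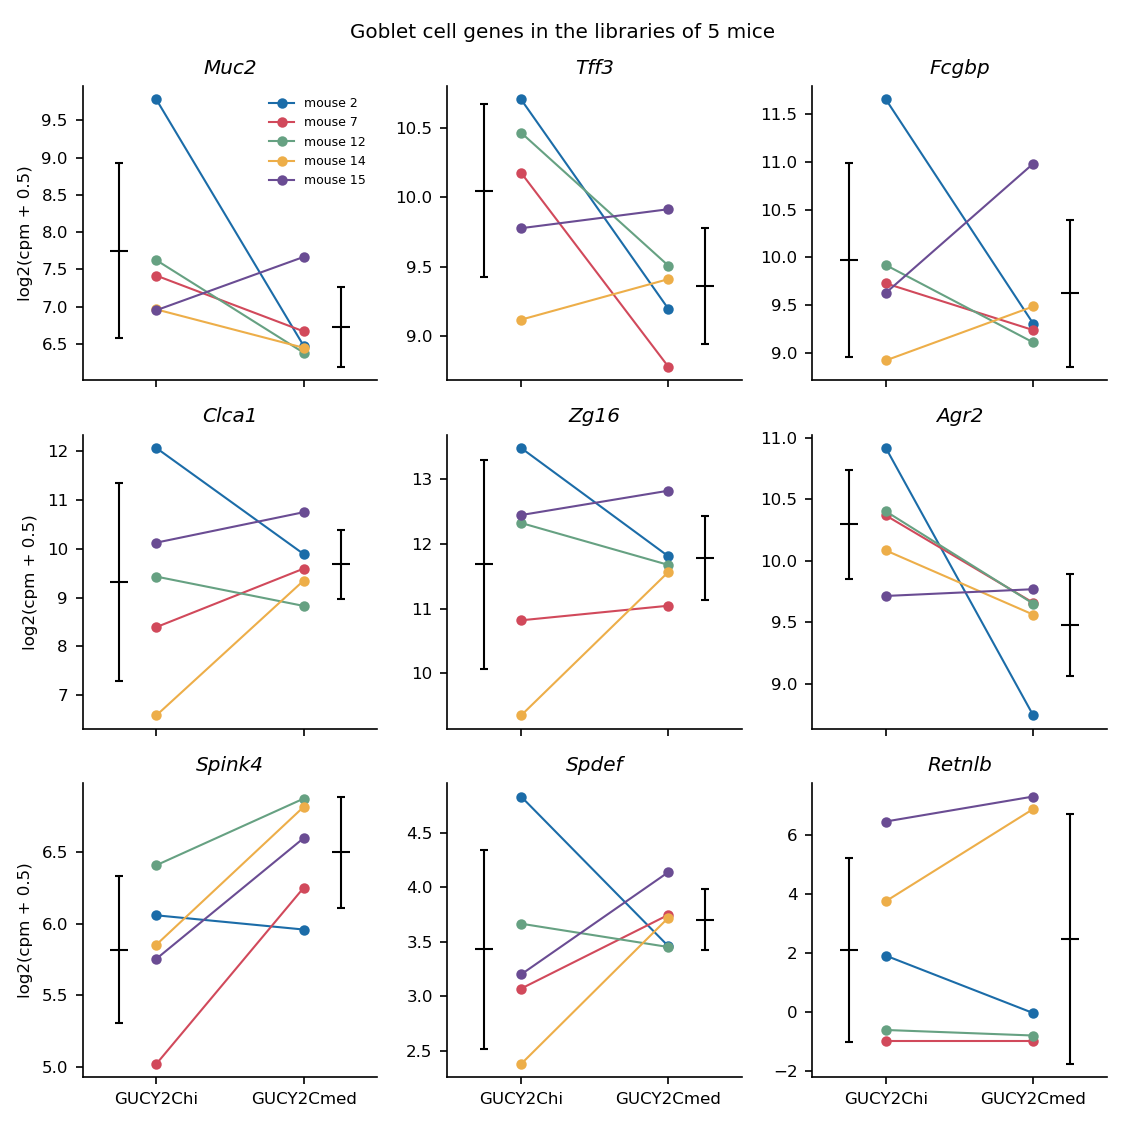
Level of each of the 9 genes as log2(cpm + 0.5) in the GUCY2Chi and GUCY2Cmed library of each mouse (lines join the libraries of 1 mouse), with the mean and SD of 5 libraries beside the points. The groups overlap in every panel, and the GUCY2Chi library of mouse 2 is the highest of that group for 7 of the 9 genes.

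Muc2 encodes the gel-forming mucin of the intestine (chr7:141690340-141754693 on GRCm38). Its level in GUCY2Chi cells was 879 cpm in mouse 2, 170 in mouse 7, 197 in mouse 12, 124 in mouse 14 and 123 in mouse 15. The GUCY2Cmed libraries of the same mice held 88.3, 101, 82.8, 86.7 and 203 cpm. Muc2 was thus higher in GUCY2Chi cells of 4 of 5 mice, by 9.96-fold in mouse 2 and by 1.43- to 2.37-fold in mice 7, 12 and 14, and lower in mouse 15. The fitted log2 fold change of 1.41 ± 0.56 (SE) did not pass the threshold (adjusted p = 0.0659) and was 0.51 without the GUCY2Chi library of mouse 2. DESeq2 gave Muc2 no adjusted p.

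Tff3, which encodes trefoil factor 3, a small peptide secreted with mucus (chr17:31125306-31129646), stood at 1668, 1157, 1413, 556 and 877 cpm in GUCY2Chi cells of mice 2, 7, 12, 14 and 15. In GUCY2Cmed cells it stood at 586, 439, 727, 681 and 965 cpm. The GUCY2Chi value was the higher one in mice 2, 7 and 12 and the lower one in mice 14 and 15. The log2 fold change was 0.74 ± 0.32 (SE, adjusted p = 0.0863).

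Agr2 (chr12:35992907-36004087) came closest to the threshold. Its GUCY2Chi levels were 1936, 1323, 1354, 1086 and 840 cpm, and its GUCY2Cmed levels 428, 808, 804, 756 and 873 cpm. Only the GUCY2Chi library of mouse 15, which had the lowest enteroendocrine sum of that group, fell within the GUCY2Cmed range. A link between that sum and Agr2 was not tested. Its fold change of 0.83 ± 0.28 on the log2 scale (SE, adjusted p = 0.0328) passed the threshold with DESeq2 (adjusted p = 0.00636) and with library size in place of TMM factors (0.00605). That scaling also moved the median of all genes from 0.09 to 0.39 and the share of calls that were higher from 61.3% to 83.9%. Over all alternatives the adjusted p of Agr2 ran from 0.00605 to 0.107.

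Fcgbp encodes a large mucus protein that binds the Fc part of IgG (chr7:28071236-28120862). It was at 3227, 848, 968, 484 and 791 cpm in GUCY2Chi cells and at 632, 604, 552, 717 and 2024 cpm in GUCY2Cmed cells. Each group had 1 library far above its others, that of mouse 2 in GUCY2Chi cells and that of mouse 15 in GUCY2Cmed cells. With a fitted value of 0.48 ± 0.54 (log2, SE, adjusted p = 0.537), the fold change turned to -0.16 without the GUCY2Chi library of mouse 2.

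Clca1, a secreted metalloprotease that cleaves MUC2 (chr3:145003817-145032776), differed most among GUCY2Chi libraries of the 8 members detected in every library. It stood at 4282 cpm in mouse 2, 336 in mouse 7, 689 in mouse 12, 95.6 in mouse 14 and 1116 in mouse 15. The GUCY2Cmed libraries held 948, 772, 454, 652 and 1720 cpm. GUCY2Chi cells had more in mice 2 and 12 and less in the other 3 mice. The log2 fold change was 0.52 ± 0.79 (SE, adjusted p = 0.659), but -0.38 with the mouse as replicate block and -0.61 without the GUCY2Chi library of mouse 2, so that no direction can be given.

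Zg16 encodes a lectin-like protein of mucus that binds bacterial cell walls (chr7:127050156-127087328) and ranked first of the set per length in both groups. It was at 11400, 1805, 5112, 652 and 5562 cpm in GUCY2Chi cells and at 3576, 2110, 3263, 3031 and 7220 cpm in GUCY2Cmed cells. As with Clca1, the GUCY2Chi library of mouse 14 was the lowest of all 10 and that of mouse 2 the highest. The log2 fold change was 0.35 ± 0.63 (SE, adjusted p = 0.714), -0.07 with the replicate block and -0.14 without the GUCY2Chi library of mouse 2.

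Spink4 encodes a Kazal-type peptide of goblet cells (chr4:40920052-40931395) and leaned the other way. Its GUCY2Chi levels were 66.2, 32.0, 84.6, 57.4 and 53.5 cpm, against 61.8, 75.8, 117, 112 and 96.5 cpm in GUCY2Cmed cells. GUCY2Chi cells had less in 4 of 5 mice, with mouse 2 as the exception. On the log2 scale the fold change was -0.66 ± 0.26 (SE, adjusted p = 0.0641), and its sign held in all 21 alternatives, with an adjusted p between 0.0277 and 0.177.

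Spdef, the transcription factor of the set (chr17:27714352-27728955), had the fewest counts of the members detected in every library. It stood at 28.0, 7.90, 12.2, 4.70 and 8.69 cpm in GUCY2Chi cells and at 10.5, 12.9, 10.4, 12.7 and 17.1 cpm in GUCY2Cmed cells. The GUCY2Cmed libraries lay close together, within 1.64-fold, whereas the GUCY2Chi libraries spanned 5.95-fold. The log2 fold change was -0.05 ± 0.41 (SE, adjusted p = 0.948), and its sign changed in 7 of 21 alternatives.

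Retnlb encodes a resistin-like protein of goblet cells that is induced by type 2 cytokines (chr16:48816856-48818892). Its GUCY2Chi levels were 3.23 cpm in mouse 2, 0 in mouse 7, 0.151 in mouse 12, 12.9 in mouse 14 and 86.3 in mouse 15. In GUCY2Cmed cells the same mice gave 0.468, 0, 0.072, 116 and 156 cpm. Values above 10 cpm occurred in both libraries of mice 14 and 15, and in neither library of the other 3 mice. A count of 0, as found in both libraries of mouse 7, allows up to 3 counts, which is 0.181 cpm in the GUCY2Chi and 0.241 cpm in the GUCY2Cmed library, covering counting error only. The log2 fold change between the groups was -1.41 ± 1.85 (SE, adjusted p = 0.603).

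**Figure D3:**
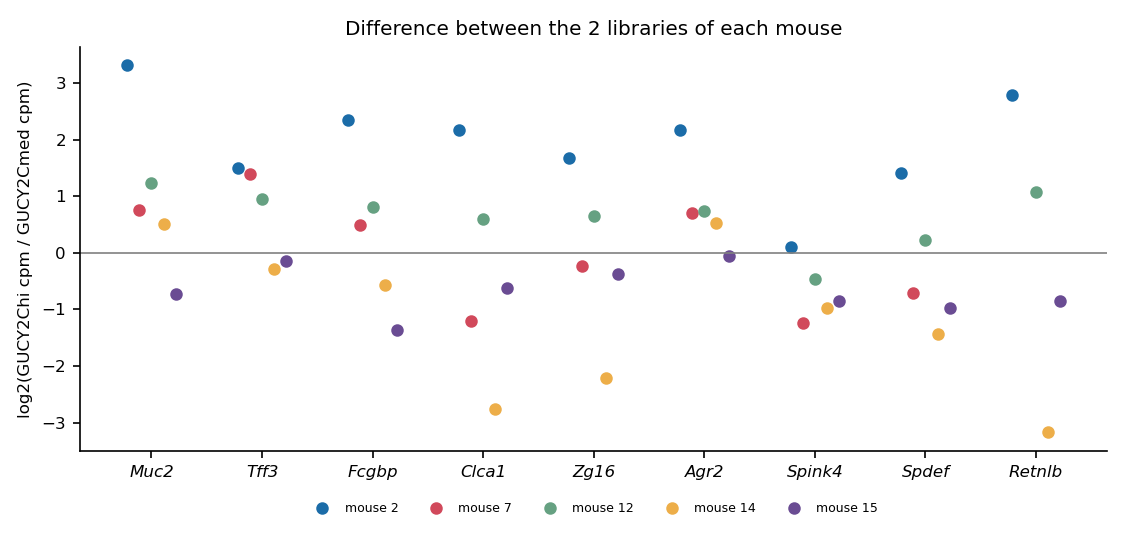
Log2 ratio of the GUCY2Chi to the GUCY2Cmed level (cpm) within each of the 5 mice for the 9 genes, with Retnlb of mouse 7 left out because both libraries were at 0. Mouse 2 lies above 0 for every gene (Muc2 by 9.96-fold), and mouse 15 lies below 0 for every gene. Mouse 14 is the lowest mouse for Retnlb (0.111-fold), Clca1 (0.147-fold), Zg16 (0.215-fold), Spdef (0.371-fold) and Tff3 (0.817-fold).

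The members differed in how far they varied within the GUCY2Chi gate. The highest library exceeded the lowest by 2.31-fold for Agr2, 2.65-fold for Spink4 and 3.00-fold for Tff3. The ratio was 5.95 for Spdef, 6.66 for Fcgbp and 7.14 for Muc2, and it reached 17.5 for Zg16 and 44.8 for Clca1. Among 9808 genes with a mean of at least 5 cpm and a count in every library, the median ratio was 1.92, and 35.3% had as large a ratio as Agr2, 21.9% as Tff3, 3.31% as Zg16 and 1.46% as Clca1. Retnlb, at 0 in a library of each group, has no such ratio. In GUCY2Cmed cells the other 8 members spanned 1.64- to 3.79-fold, against a median of 1.76 over the same genes. The GUCY2Chi library of mouse 14 had the highest enteroendocrine sum (108900 cpm) together with the lowest goblet sum (3073 cpm). There Agr2 was at 1.44 times and Muc2 at 1.43 times the GUCY2Cmed level of the same mouse. Below it were Tff3 (0.817), Fcgbp (0.676), Spink4 (0.51), Spdef (0.371), Zg16 (0.215), Clca1 (0.147) and Retnlb (0.111). In mouse 7, next in enteroendocrine sum (102300 cpm), Tff3 (2.63), Muc2 (1.69), Agr2 (1.64) and Fcgbp (1.4) were above. Zg16 (0.856), Spdef (0.611), Clca1 (0.435) and Spink4 (0.422) were below. Whether the enteroendocrine sum and these ratios are linked was not tested.

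Levels can be set between genes only per length. By cpm per 1000 bases of the gene length in the table, the median order in GUCY2Chi cells was Zg16 (4067), Tff3 (2347), Agr2 (1025), Clca1 (183), Spink4 (120), Fcgbp (80.8), Muc2 (23.9), Retnlb (4.64) and Spdef (3.77), and the ranges of all neighbours in this order overlapped. In GUCY2Cmed cells the first 7 ranks were the same, with medians of 2596 for Zg16, 1381 for Tff3, 623 for Agr2 and 12.4 for Muc2. Spdef (5.51) then came before Retnlb (0.673). Ranges there did not overlap between Tff3 and Agr2, between Fcgbp and Muc2, or between Muc2 and Spdef. The deposited FPKM values gave the same order except that Fcgbp (220.3) preceded Spink4 (205.5) and Spdef (7.70) preceded Retnlb (5.10) in GUCY2Chi cells. They rest on other lengths, for Muc2 one of 1283 bases where the table lists 7127. The distance of Muc2 from the others thus depends on the length used. By FPKM in GUCY2Cmed cells, the ranges of Tff3 and Agr2 overlapped, and so did those of Fcgbp and Muc2. Those of Zg16 and Tff3 did not overlap there, nor did those of Muc2 and Spdef.

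To set the members against each other within a library, each member was expressed relative to Muc2 as log2 of the ratio of counts. For 2 of 8 members the ratio did not overlap between the groups, Spdef and Spink4, both lower in GUCY2Chi cells. Of all genes, 16.4% did not overlap and 12.4% lay lower in GUCY2Chi cells. The mean log2 ratio was lower in GUCY2Chi cells for all 8 members, which share Muc2 as denominator. The fitted log2 fold change of the level was 1.41 for Muc2, -0.05 for Spdef and -0.66 for Spink4. A lower ratio to Muc2 therefore need not mean a lower level of the member. The part of Muc2 in the 2 separations was not tested. Spdef gave 0.0319 to 0.0708 counts per Muc2 count in GUCY2Chi libraries and 0.0847 to 0.147 in GUCY2Cmed libraries. On the log2 scale the means were -4.39 ± 0.48 and -3.07 ± 0.30 (SD, n = 5 each; exact two-sided permutation test, p = 0.00794, the smallest that 5 against 5 can give). Spink4 gave 0.0754 to 0.462 against 0.476 to 1.41, with log2 means of -1.94 ± 1.14 and -0.23 ± 0.66 (SD, n = 5 each; exact permutation p = 0.00794). Both tests permuted the 10 libraries freely, without the pairing by mouse. Their p restates that the groups did not overlap and adds nothing to it. Adjusted over 15702 genes both p-values came to 0.0484, the lowest value any gene could take. Spdef and Spink4 were lower relative to Muc2 in all 5 mice.

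Fcgbp was lower relative to Muc2 in all 5 mice too (log2 means 2.23 ± 0.32 and 2.90 ± 0.29, SD, n = 5; exact permutation p = 0.0159, adjusted 0.0651). Its ranges of 3.67 to 6.42 and 5.97 to 9.99 counts per Muc2 count overlapped. Retnlb, whose ratio ran from 0.000177 to 1.34, was also below its GUCY2Cmed partner in all 5 mice, in mouse 7 with no Retnlb count in either library, and its groups differed by less than their spread (exact permutation p = 0.667, adjusted 0.750). The ratios of Clca1 (p = 0.0556), Zg16 (0.0873), Tff3 (0.492) and Agr2 (0.714) to Muc2 did not pass 0.05 in exact permutation tests, and their adjusted values were 0.131, 0.179, 0.614 and 0.788. Without the GUCY2Chi library of mouse 15 the ratios of 4 members did not overlap, Fcgbp and Clca1 in addition. Relative to Tff3 in place of Muc2, no member stood apart. The share of all genes was not determined for these alternatives.

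**Figure D4:**
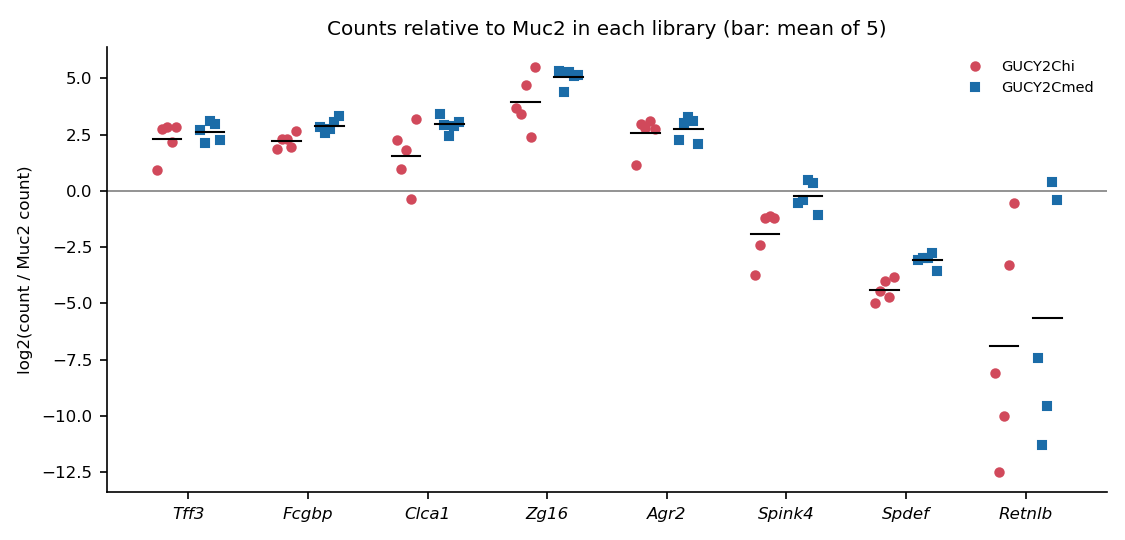
Log2 ratio of each gene's count to the Muc2 count in the 5 GUCY2Chi (red circles) and 5 GUCY2Cmed (blue squares) libraries, with bars at the means. The points of the groups lie apart for Spink4 and Spdef, whose means are -1.94 against -0.23 and -4.39 against -3.07, and overlap for the other 6 genes.

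Other genes that followed Muc2 over the 10 libraries were ranked by the SD of their log2 ratio to Muc2 among 9976 genes with a mean of at least 5 cpm. These points share library, depth and group, so the ranking is a description. The median SD was 1.14. The uncharacterized gene 2210011C24Rik came first (SD 0.266, chr8:84010222-84012171), at 17.2, 4.64, 5.07, 4.32 and 3.78 cpm in GUCY2Chi cells of mice 2, 7, 12, 14 and 15 and at 2.81, 3.85, 2.52, 2.63 and 5.65 cpm in GUCY2Cmed cells. Its high libraries, mouse 2 among GUCY2Chi cells and mouse 15 among GUCY2Cmed cells, were those of Muc2.

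Fcgbp came second (0.458), Tff3 and Agr2 were at ranks 20 and 21 (0.648 and 0.651) and Spdef at 195 (0.790). The SDs of Zg16 (1.03, rank 3336), Clca1 (1.18, rank 5504) and Spink4 (1.26, rank 6211) lay near the median of all genes, and that of Retnlb (4.89, rank 9968) far above it. The next non-members were Rab27b, a small GTPase of granule exocytosis (0.480), Odf2l (0.512), Adgre5, an adhesion receptor (0.572), Clic4 (0.576), Gcnt3, which branches mucin O-glycans (0.578), Txndc5, a disulfide isomerase of the endoplasmic reticulum (0.582), Gsn, which encodes the actin-severing protein gelsolin (0.587), Defa5, a Paneth cell defensin (0.589), and Ephb3, a receptor of crypt cells (0.600). Reads of Defa5 may be shared with near-identical defensin genes, which leaves its level uncertain.

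Genes around these products were followed in 6 lists with 59 genes tested. Here 13 were higher and 7 lower in GUCY2Chi cells, against 13.9% and 8.79% of all genes. The same shares of all genes stand beside the counts of each list below. With the mouse as replicate block in edgeR the 13 became 7, where 8.24% of all genes were called as higher.

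Among 12 other goblet cell genes, 1 was higher and none was lower, with a median log2 fold change of 0.19. The gene called was Ttc39a, at 17.9 to 58.2 cpm in GUCY2Chi cells and 6.68 to 15.1 cpm in GUCY2Cmed cells, without overlap (log2 fold change 1.83 ± 0.35, SE, adjusted p = 0.00229). Ern2, the endoplasmic reticulum stress sensor of mucin-secreting cells, ranged from 4.60 to 38.3 cpm and from 4.75 to 15 cpm (0.77 ± 0.55, adjusted p = 0.301).

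Among 9 secretory transcription factors, 3 were higher and none was lower, and all 3 were forkhead factors. Foxa1 stood at 96.0, 114, 75.2, 96.0 and 32.7 cpm in GUCY2Chi cells and at 4.73 to 8.28 cpm in GUCY2Cmed cells (log2 fold change 3.59 ± 0.32, SE, adjusted p = 2.14e-05). Foxa2 was at 13.9 to 51.2 cpm against 1.78 to 4.96 cpm (3.25 ± 0.44, adjusted p = 0.000295). Foxa3 was at 65.4 to 142 cpm against 26.0 to 55.0 cpm (1.49 ± 0.26, adjusted p = 0.00145), with an adjusted p of 0.0122 under the replicate block in edgeR. For all 3 factors the groups did not overlap, with GUCY2Chi cells above, as for 16.7% of all genes. FOXA1 and FOXA2 are known in enteroendocrine as well as goblet cells. Each of the 3 was at its lowest GUCY2Chi level in mouse 15. That library also had the lowest enteroendocrine sum and the lowest Gucy2c level of its group (549 cpm). Foxa2 was nearly as low in mouse 12 (15.4 cpm) as in mouse 15 (13.9 cpm). Whether these levels are linked was not tested.

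Atoh1, the factor that commits cells to the secretory lineages, gave 69.8, 15.1, 15.8, 14.8 and 21.2 cpm in GUCY2Chi cells and 13.1 to 33.6 cpm in GUCY2Cmed cells (0.28 ± 0.45, adjusted p = 0.675). Only mouse 2 stood high. Factors that did not pass the threshold also included Xbp1 (0.38 ± 0.21, adjusted p = 0.189), Creb3l1, Creb3l4, Klf4 and Gfi1.

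Enzymes of mucin O-glycosylation were divided. Of 20 listed, 17 were tested, 5 were higher, 2 were lower, and the median log2 fold change was 0.19. Galnt3 and Galnt4 belong to the transferases that attach the first sugar, as do Galnt1 and Galnt10. Galnt4 rose in GUCY2Chi cells (53.5 to 121 against 22.4 to 41.6 cpm, log2 fold change 1.39 ± 0.23, SE, adjusted p = 0.00108), as did Galnt3 (1.16 ± 0.22, adjusted p = 0.00221, but 0.0166 with the replicate block). Galnt1 fell (91.5 to 111 against 129 to 204 cpm, -0.75 ± 0.15, adjusted p = 0.00332, but 0.0106 with the block), and so did Galnt10 (-1.05 ± 0.21, adjusted p = 0.00289). None of these 4 overlapped between the groups, nor did 29.9% of all genes. Galnt1 did not pass without the GUCY2Chi library of mouse 2 or 7 or the GUCY2Cmed library of mouse 2 or 15 (adjusted p 0.0103 to 0.0126), nor did Galnt10 without the GUCY2Chi library of mouse 7 or the GUCY2Cmed library of mouse 2 (0.0121 and 0.0102).

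Fut2, which adds the terminal fucose of mucin glycans, was at 5.29 to 20.2 cpm against 0.0751 to 1.80 cpm (4.43 ± 0.75, adjusted p = 0.00122). Gcnt1, a branching enzyme with few counts, was at 1.06 to 4.93 cpm against 0 to 0.432 cpm (3.86 ± 0.71, adjusted p = 0.00177, but 0.0113 with the block). The fifth gene called as higher was Galnt12 (1.37 ± 0.34, adjusted p = 0.00864, but 0.0242 with the block), whose call was lost when any 1 of 6 libraries was left out, the GUCY2Chi ones of mice 2, 7 and 14 and the GUCY2Cmed ones of mice 2, 12 and 14 (adjusted p up to 0.0234).

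**Figure D5:**
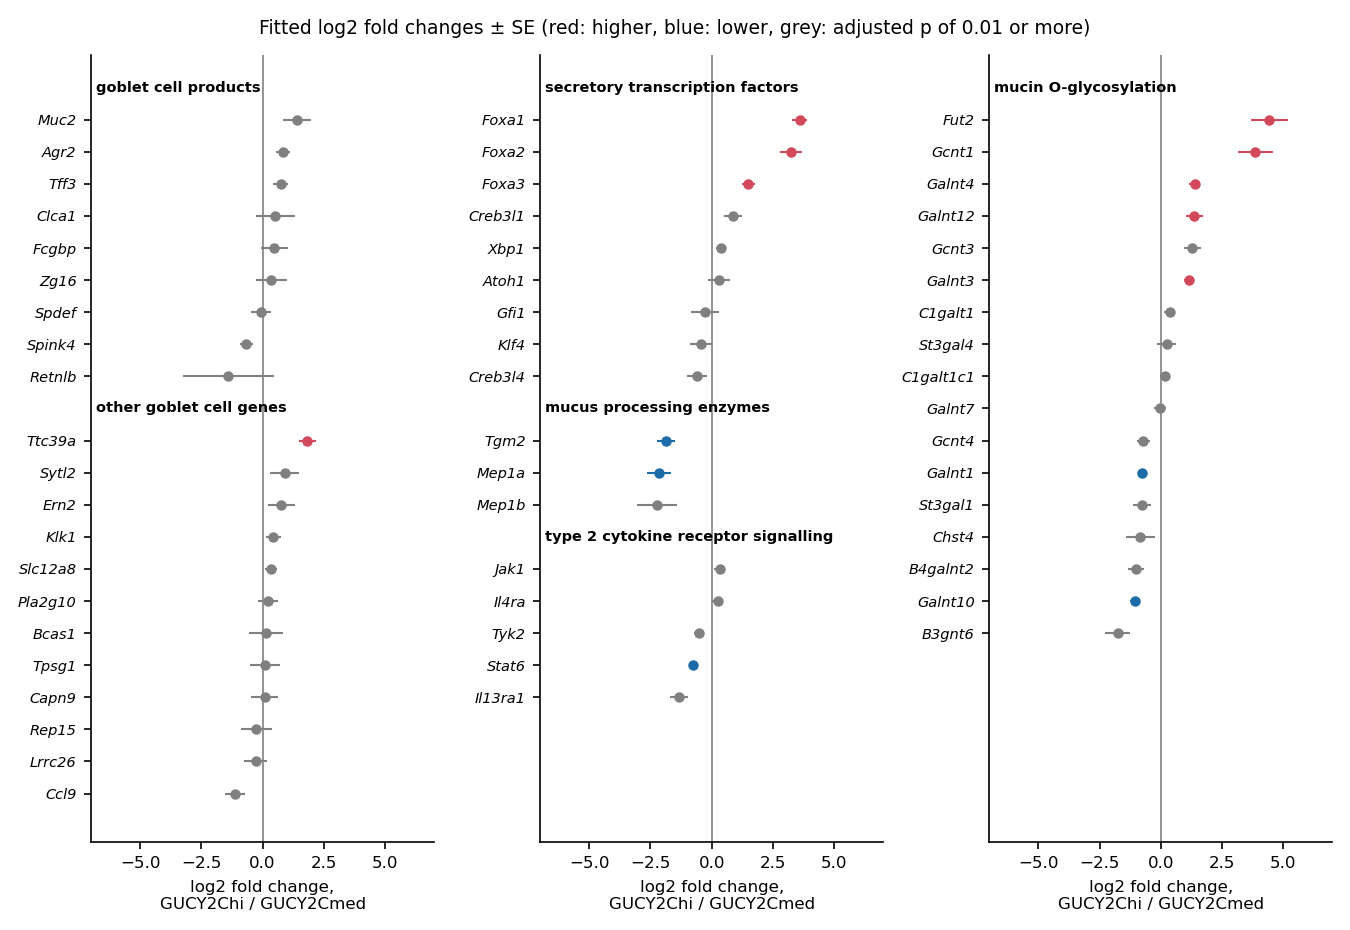
Fitted log2 fold change (GUCY2Chi over GUCY2Cmed, x axis) with its SE for the 9 goblet cell products and the tested genes of 5 related lists, in red where higher, in blue where lower and in grey where the adjusted p was 0.01 or more. All 9 products are grey, and Foxa1 (3.59), Fut2 (4.43) and Gcnt1 (3.86) lie farthest to the right.

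Of the enzymes that process mucus outside the cell, all 3 tested had a negative log2 fold change and 2 passed the threshold. Mep1a, a subunit of the meprin metalloproteases, was at 8.38 to 51.6 against 66.2 to 189 cpm (log2 fold change -2.15 ± 0.50, SE, adjusted p = 0.00623). The transglutaminase Tgm2 was at 3.80 to 18 against 31.6 to 38.1 cpm (-1.86 ± 0.37, adjusted p = 0.00302). Mep1b, the meprin subunit known to cleave MUC2, did not pass (30.1 to 664 against 764 to 1478 cpm, -2.23 ± 0.80, adjusted p = 0.0453), and its 2 highest GUCY2Chi libraries, of mice 12 and 15, were those with the highest enterocyte sum. Of 12 enterocyte markers, all had a negative log2 fold change (median -2.36) and 1 passed the threshold, and none was at 0. Their part in the lower meprin levels was not tested. The call of Mep1a was lost without any 1 of 7 libraries, the GUCY2Chi ones of mice 2, 7 and 14 and the GUCY2Cmed ones of mice 2, 12, 14 and 15 (adjusted p up to 0.0226), and that of Tgm2 without the GUCY2Chi library of mouse 2 (0.0117) or the GUCY2Cmed library of mouse 15 (0.0111).

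Receptors and transducers of type 2 cytokines, which induce Retnlb and goblet cell expansion, were tested for 5 of 6 genes, with Il13ra2 at 0 in every library. Stat6 was lower (45.9 to 65.5 against 60.1 to 103 cpm, -0.76 ± 0.18, adjusted p = 0.007), with an adjusted p of 0.0141 with the replicate block, and it passed only in the fit without the GUCY2Cmed library of mouse 12 among the 10 fits that left out 1 library (up to 0.0201). The other 4, Il4ra, Il13ra1, Jak1 and Tyk2, did not pass the threshold. Il13ra1 was at 27.7 to 127 against 135 to 222 cpm (-1.34 ± 0.37, adjusted p = 0.0152).

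Relatives of the products by gene family were followed last. Of 23 in the table, 13 were tested, 4 were higher and 2 lower. Agr3, the closest relative of Agr2, stood at 199, 171, 180, 203 and 81.0 cpm in GUCY2Chi cells and at 4.31, 5.38, 7.63, 5.18 and 8.22 cpm in GUCY2Cmed cells. Its log2 fold change was 4.76 ± 0.31 (SE, adjusted p = 3.76e-06), and it passed the threshold without any 1 of the 10 libraries and with the replicate block (adjusted p = 0.000428). Agr2 and Agr3 thus both had their lowest GUCY2Chi level in mouse 15, but only Agr3 was called, and the difference between their fold changes was not tested.

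The transmembrane mucins called as higher had low counts. Muc4 was at 0.945 to 17.8 against 0.257 to 1.85 cpm (3.43 ± 0.80, adjusted p = 0.00638), Muc3a at 1.26 to 9.65 against 0.360 to 1.54 cpm (2.81 ± 0.58, adjusted p = 0.00341) and Muc20 at 0.126 to 3.09 against 0 to 0.171 cpm (adjusted p = 0.00396). The groups overlapped for all 3. Muc3a (adjusted p = 0.0193) and Muc20 (0.036) did not pass with the replicate block. The call of Muc3a was lost without the GUCY2Cmed library of mouse 14 (0.011), and that of Muc20 without the GUCY2Chi library of mouse 7 or the GUCY2Cmed library of mouse 2 or 12 (up to 0.0109). Muc4 lost its call without the GUCY2Chi library of mouse 2, 7 or 14 or the GUCY2Cmed library of mouse 2, 12, 14 or 15 (up to 0.018). Muc3, at 2.31 to 11.2 against 9.46 to 33.9 cpm, did not pass (-1.56 ± 0.46, adjusted p = 0.0189). Reads of Muc3 and Muc3a may be split between near-identical copies, so both are uncertain. Muc13, another transmembrane mucin, was at 450 to 662 against 610 to 1276 cpm (-0.65 ± 0.26, adjusted p = 0.0649).

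Of the relatives of Clca1, 2 were lower in GUCY2Chi cells. Clca3b was at 50.4 to 91.3 against 132 to 247 cpm (-1.44 ± 0.24, adjusted p = 0.00117) and Clca3a2 at 0.771 to 2.62 against 4.03 to 8.67 cpm (-1.67 ± 0.37, adjusted p = 0.00507, but 0.0212 with the block). Clca4a (-2.01 ± 0.91, adjusted p = 0.104) and Clca4b (-2.23 ± 0.71, adjusted p = 0.027) did not pass. Clca3a2 lost its call without the GUCY2Chi library of mouse 2 or 7 or the GUCY2Cmed library of mouse 2, 7, 14 or 15 (up to 0.0176). Reads may be shared within this family. Spink1, the relative of Spink4, was at 5.51, 5.67, 130, 3.08 and 121 cpm in GUCY2Chi cells and at 89.8 to 296 cpm in GUCY2Cmed cells (-2.10 ± 0.97, adjusted p = 0.108). Its high GUCY2Chi libraries were again the enterocyte-rich ones of mice 12 and 15.

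Without these libraries of mice 12 and 15, a choice made after the data were seen, still no goblet cell product was called, whereas 32.3% of all genes were. Without both libraries of mouse 2, also none was called (8.78% of all genes), and the log2 fold changes of Fcgbp, Clca1 and Zg16 were -0.27, -0.60 and -0.17.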

How the data were processed

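The deposited read counts per gene are whole numbers that the authors had not normalized. The sequencing provider aligned paired-end reads with STAR, and the notes name mm9. The positions of 37729 of 37795 matched symbols overlap those of GRCm38, so positions are on GRCm38. Strand use in counting is not given in the sources used here. FPKM, as deposited by the authors, served for the order of genes only. The 10 normalized columns per library and the columns of fold changes and p-values from the authors' own comparison (limma 3.40.6 and edgeR 3.26.8 in the submitters' notes) were not used.

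The analysis used edgeR 4.0.16 under R 4.3.3, beside DESeq2 1.42.0 and limma 3.58.1, and Python 3.11.15. Genes above 0.5 cpm in at least 3 libraries (15703) were kept, scaled by TMM and compared by edgeR's quasi-likelihood test without a mouse term, at a Benjamini-Hochberg adjusted p under 0.01 over all of them. The methods name limma and edgeR but no model. Levels are TMM-scaled cpm. The fit was also run on simulated counts, drawn independently per library without a mouse effect and with far fewer changed genes than were called here. That run checks the code and does not show how the fit behaves on these libraries. Ratios used counts plus 0.5.

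Members, lists, tests and motifs were chosen with earlier results of these data known. Named were all members, up to 4 genes per list and direction with the smallest adjusted p, Atoh1, Ern2, relatives with a mean of at least 5 cpm and the 10 genes closest to Muc2. Other genes were named after their values were seen. Library numbers were taken as mouse numbers because 5 mice were each sorted into both gates. Deviations from the group means correlated between the 2 libraries of a mouse by -0.173 to 0.270. The correlation was below 0 for mice 2, 7 and 14. Only the GUCY2Chi library of mouse 12 matched best the GUCY2Cmed library of its own number. The pairing by mouse thus rests on the numbers in the labels. The alternatives were other tools, scalings and filters, the mouse as replicate block, each library left out, and 2 sets of libraries left out, added after the data were seen.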

Additional observations from a re-analysis of the deposited data

Results flagged for a closer look

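Within groups of 5 libraries, 4 of the 18 sets of member levels (log2(cpm + 0.5)) had 1 library far from the rest, where the gap to the nearest library took more of the range than Dixon's critical value of 0.71. Chance gives about 1 such set in 20. Muc2 in GUCY2Chi cells was high in mouse 2 (gap 0.762 of the range). Muc2 in GUCY2Cmed cells was high in mouse 15 (0.778), and so was Fcgbp (0.799). Agr2 in GUCY2Cmed cells was low in mouse 2 (0.799).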

How the results depend on the processing

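The count of products called as higher was 1 in place of 0 with DESeq2 and with library size without TMM, Agr2 each time, and 0 in the other 19 alternatives; none was called as lower in any of the 21. Each library left out in turn gave 0. Muc2, Tff3, Agr2 and Spink4 kept their sign in all 21 alternatives and Retnlb in the 20 that kept it (it did not pass 10 counts in every library). Fcgbp turned to -0.16 without GUCY2Chi replicate 2 and to -0.267 without both libraries of mouse 2. Clca1 turned to -0.382 with limma-voom, to -0.382 and -0.5 with the replicate block in edgeR and limma-voom, to -0.609 without GUCY2Chi replicate 2 and to -0.596 without mouse 2. Zg16 turned to -0.11, -0.0747, -0.192, -0.144 and -0.172 under the same 5 settings. Spdef turned to 0.242 without TMM, 0.0667 with 10 counts in every library, 0.0907, 0.16 and 0.0776 without GUCY2Chi replicates 7, 14 and 15, 0.0872 without GUCY2Cmed replicate 15 and 0.111 without the GUCY2Chi libraries of mice 12 and 15. Leaving out 1 library gave from -0.16 to 1.02 for Fcgbp, -0.609 to 0.897 for Clca1, -0.144 to 0.729 for Zg16 and -0.538 to 0.16 for Spdef. The cause of these changes was not tested.

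Of the related genes, 13 were higher and 7 lower. The 13 became 7 with the replicate block in edgeR and 6 without mouse 2, and lay between 10 and 15 with each library left out. The 7 became 12 with DESeq2, 2 without TMM, 12 without the GUCY2Chi libraries of mice 12 and 15 and 1 without mouse 2, and lay between 2 (without GUCY2Chi replicate 7) and 10 (without GUCY2Chi replicate 15) with 1 library left out. Of the cell type markers, 13 were higher and 7 lower. The 13 became 5 with 10 counts in every library, where 46 in place of 69 were tested, and lay between 12 and 15 with 1 library left out. The 7 became 16 with limma-voom, 18 with DESeq2, 3 without TMM, 3 and 13 with the replicate block in edgeR and limma-voom, 17 without the GUCY2Chi libraries of mice 12 and 15 and 1 without mouse 2, and lay between 2 (without GUCY2Chi replicate 2) and 11 (without GUCY2Chi replicate 15) with 1 library left out. The number of members whose ratio to Muc2 did not overlap was 2, and 0 for the ratio to Tff3. Under the replicate block, read as 1 sign in all 5 mice, it was 4, and between 2 and 4 with 1 library left out. The 4 under the block included Retnlb, which had no count in either library of mouse 7. The share of all genes was not determined for these alternatives, so these counts give no result about the members. Without the pairing by mouse no product was called, so the replicate block had no call to end. With the block in edgeR the adjusted p of Agr2 went from 0.0328 to 0.107. Over all genes the 2186 higher and 1381 lower calls became 2910 and 557 without TMM, and 2960 and 2235 with DESeq2. They became 2129 and 1797 with limma-voom, and 1294 and 779 with the replicate block in edgeR. With the block in limma-voom they were 1824 and 1382. Without the GUCY2Chi libraries of mice 12 and 15 they were 2711 and 2186, and without mouse 2 they were 1194 and 151. The calls over all genes thus moved too, and the counts of related genes and markers give no result apart from them.

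The 5 libraries per group limit small differences: products such as Clca1 varied by up to 44.8-fold within GUCY2Chi cells.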

Other observations

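Other goblet cell genes that were not called also spread widely within GUCY2Chi cells. The highest library exceeded the lowest by 21.2-fold for Bcas1, 20.7-fold for Tpsg1 and 12-fold for Rep15, against 4.19-, 1.91- and 3.17-fold in GUCY2Cmed cells. Slc12a8 spanned only 1.90-fold and Klk1 3.93-fold in GUCY2Chi cells. Over the 12 genes of this list the median span was 7.46 in GUCY2Chi and 2.42 in GUCY2Cmed cells, where all 9808 genes compared had 1.92 and 1.76. Ccl9, a chemokine, was at 5.91 to 29.9 cpm in GUCY2Chi and 22.0 to 55.2 cpm in GUCY2Cmed cells (log2 fold change -1.12 ± 0.39, SE, adjusted p = 0.041).

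The other secreted mucins and trefoil factors listed were at or near 0. Muc6 was at 0.126 to 0.672 cpm in GUCY2Chi and 0 to 0.144 cpm in GUCY2Cmed cells, too low to be tested. Muc5ac and Tff1 had no count in any library, Tff2 reached 0.454 cpm and Muc5b 0.121 cpm in GUCY2Chi cells, and neither of them had a count in GUCY2Cmed cells.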
